A study of Mus musculus with 2 samples.

Results

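ST2-negative Foxp3 cells are CD4 T cells from the intra-abdominal (visceral) adipose tissue, VAT, of mice in which the regulatory T cell (Treg) transcription factor gene Foxp3 was read and Il1rl1, the gene of the IL-33 receptor ST2, was not. The cells were selected on their Foxp3 and Il1rl1 UMIs (unique molecular identifiers, each counting 1 captured RNA molecule). Droplet barcodes that held 500 genes or more, and no more than 10% of UMIs from mitochondrial genes, were kept, and of these the cells with at least 1 Foxp3 UMI and 0 Il1rl1 UMIs were taken. The rule found 160 of 6853 kept CD27_KO cells and 220 of 6338 kept WT cells, 380 of 13191 in all. Foxp3 lies on chromosome X (7573644 to 7595245, plus strand) and Il1rl1 on chromosome 1 (40429570 to 40465415, plus strand) of mm10.

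The CD27_KO library came from mice described as CD27-/-, which lack the TNF receptor family member CD27 on T cells, and the WT library from wild-type mice. Both carry the strain entry C57BL/6, so the genotype rests on the sample titles. TCRb+ CD4+ cells were isolated by flow sorting of the pooled VAT stromal vascular fraction. The labels name 10 mice without saying whether that is per pool, and they give neither age nor sex. With 1 library of pooled mice per group there is no replicate, so no p-value or spread between mice can be given, and every interval below is an exact 95% interval that covers counting error alone. The 4 Y-linked genes measured had 141 UMIs in CD27_KO and 175 in WT ST2-negative Foxp3 cells, and Xist had 0 in both.

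Treg cells restrain other immune cells, and Foxp3 maintains their identity. In VAT, many Treg cells carry ST2 and respond to IL-33 from stromal cells. These cells depend on the nuclear receptor PPARg and typically express Klrg1, Gata3 and Areg. Treg cells without ST2 include cells that still circulate through lymphoid organs, marked by Ccr7, S1pr1 and Klf2, and cells with other tissue programmes. CD27 is a costimulatory receptor for CD70 and signals through TRAF adaptors to NF-kB.

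The label was checked with 9 Treg genes that the rule did not use (Ikzf2, Ctla4, Il2ra, Tnfrsf18, Tnfrsf4, Capg, Izumo1r, Ikzf4 and Lrrc32), after each cell was thinned to 1300 UMIs so that depth could not set the result. At least 3 of the 9 genes were read in 60.4% of 154 CD27_KO ST2-negative Foxp3 cells (52.2 to 68.2%), against 5.77% of CD27_KO cells without Foxp3. In WT they were read in 58.8% of 204 ST2-negative Foxp3 cells (51.7 to 65.6%), against 14.0% of WT cells without Foxp3. At least 1 of the 9 was read in 96.1% of CD27_KO and 96.6% of WT ST2-negative Foxp3 cells, against 52.1% of CD27_KO and 55.8% of WT cells without Foxp3. Foxp3 UMIs thus came with at least 3 other Treg genes in most of these cells.

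Markers of other cell types were sparse. Neutrophil (3 genes) and mast cell (2 genes) markers were at 0 UMIs in ST2-negative Foxp3 cells of both libraries. B cell marker UMIs were seen in 4 of 160 CD27_KO and 4 of 220 WT cells, with Ms4a1 at 0 in both. Up to 4 were in a single CD27_KO cell and up to 8 in a WT one. Dendritic cell marker UMIs were seen in 1 CD27_KO cell (10 UMIs) and 1 WT cell (12 UMIs). NK markers were seen in 2 CD27_KO and 9 WT cells, gamma-delta T cell markers in 5 CD27_KO and 6 WT cells, and CD8 markers in 5 CD27_KO and 2 WT cells. Endothelial marker UMIs, at most 2 per cell, were seen in 8.12% of CD27_KO and 10.5% of WT cells. A single CD27_KO cell held all 265 stromal marker UMIs of its group, against 1 stromal UMI in WT. Doublets were not removed. The libraries shared 12 barcodes, none among the ST2-negative Foxp3 cells.

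As a share of all kept cells, ST2-negative Foxp3 cells were 2.33% in CD27_KO (1.99 to 2.72%) and 3.47% in WT (3.03 to 3.95%). With at least 2 Foxp3 UMIs required the order turned, at 1.04% in CD27_KO and 0.757% in WT. Among Foxp3 cells they were 49.5% of 323 in CD27_KO (44.0 to 55.1%) and 35.1% of 626 in WT (31.4 to 39.0%). ST2-positive Foxp3 cells, with at least 1 UMI of each gene, numbered 163 (2.38%) in CD27_KO and 406 (6.41%) in WT. The rule itself sets these shares, so they are descriptions.

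A cell with few UMIs can miss Il1rl1 by sampling, and the ST2-negative share was lower in deeper cells. Foxp3 cells with under 2000 UMIs were ST2-negative in 76.7% of 60 CD27_KO cells and 52.2% of 161 WT cells. At 8000 UMIs or more, 14.5% of 55 CD27_KO cells and 5.19% of 77 WT cells were. The median depth was 2959 UMIs and 1298 genes in CD27_KO ST2-negative Foxp3 cells, and 2456 UMIs and 1050 genes in WT ones. ST2-positive Foxp3 cells had medians of 5568 UMIs in CD27_KO and 3968.5 in WT. Applied to cells thinned to 1300 UMIs, the rule made 72.3% of 148 CD27_KO Foxp3 cells (64.3 to 79.3%) and 57.4% of 324 WT Foxp3 cells (51.8 to 62.9%) ST2-negative. ST2-negative here means that no Il1rl1 molecule was read, not that the transcript was absent. The same holds for Foxp3, so cells without Foxp3 can include Treg cells. After thinning, only 56.5% of CD27_KO and 60.8% of WT ST2-negative Foxp3 cells still had a Foxp3 UMI.

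**Figure D1:**
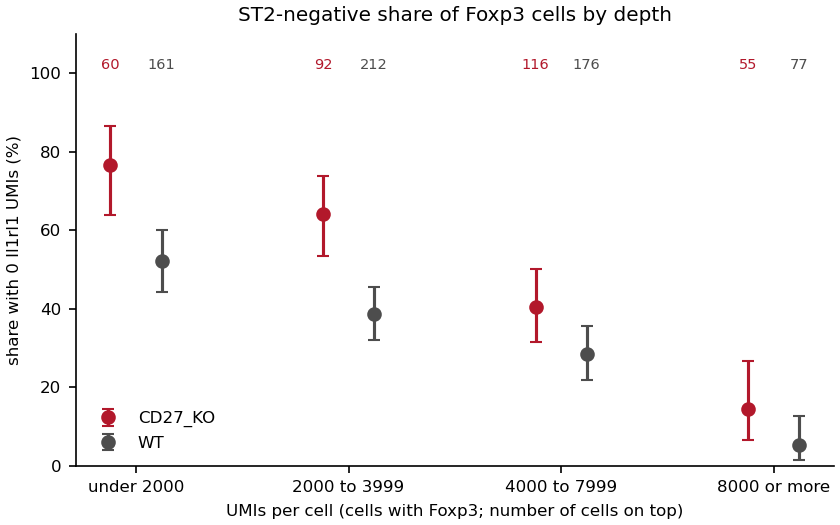
Share of Foxp3 cells with 0 Il1rl1 UMIs (%, y axis) by UMIs per cell (x axis) in CD27_KO (red) and WT (grey), with exact 95% binomial intervals and the number of Foxp3 cells on top. The share was 76.7% in CD27_KO and 52.2% in WT under 2000 UMIs, and 14.5% in CD27_KO and 5.19% in WT at 8000 UMIs or more.

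Most of the cells sat at the edge of the rule. Exactly 1 Foxp3 UMI was read in 89 of 160 CD27_KO cells (55.6%) and 172 of 220 WT cells (78.2%), and 3 or more in 28 CD27_KO and 13 WT cells. Just outside it, 39 CD27_KO and 106 WT Foxp3 cells had 1 Il1rl1 UMI. In CD27_KO, Areg stood at 127 CPM (UMIs scaled to a common group total of 1000000) in cells just inside with 1 Foxp3 UMI, and at 918 CPM in Foxp3 cells with 1 Il1rl1 UMI. In WT these were 444 and 1537 CPM. Ikzf2, which encodes the Treg factor Helios, differed less across that edge, at 843 CPM inside and 901 CPM outside in CD27_KO, and at 972 CPM inside and 963 CPM outside in WT.

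The first question was how ST2-negative Foxp3 cells differed between CD27_KO and WT. UMIs were summed over the cells of each library, 574382 in CD27_KO and 651182 in WT, scaled to CPM, and compared as a log2 ratio of CD27_KO over WT. A gene was counted as called at 2-fold or more with at least 50 UMIs over both groups. Of 3278 genes measured, 68 were called higher in CD27_KO (percent called 2.07) and 35 lower (1.07). The median over all genes was 0.10. With that median set to 0, the counts were 50 higher and 46 lower, which shows that the balance of directions depends on the scaling. Without cells that held 3 or more marker UMIs of another cell type, an alternative chosen after the data were seen, they were 74 higher and 31 lower. Ribosomal protein genes took 25.8% of UMIs in CD27_KO and 29.7% in WT. T cell receptor genes took 0.292% in CD27_KO and 0.299% in WT, mitochondrial genes 2.83% and immunoglobulin genes 0.0223% in CD27_KO, against 2.38% and 0.0279% in WT.

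Cd27, on chromosome 6 (125232622 to 125237010, minus strand), had 0 UMIs in the 160 CD27_KO cells and 112 UMIs in WT. It was seen in 0 CD27_KO cells and in 35.9% of WT cells, and in 19.1% of WT cells after thinning (14.0 to 25.2%). In CD27_KO cells without Foxp3 it was read in 0.0926% after thinning. Against a floor of 3 counts over the CD27_KO group, the log2 ratio was -5.04. The label thus held in this group of cells. Cd70, the ligand gene, had 0 UMIs in CD27_KO and 1 in WT, so its level could not be compared at this depth.

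Maf encodes the transcription factor c-Maf, which drives IL-10 in T cells. It had 689 UMIs (1199.55 CPM) in CD27_KO and 278 UMIs (427 CPM) in WT, a log2 ratio of 1.49 (1.29 to 1.70). After thinning, 63.6% of CD27_KO cells (55.5 to 71.2%) and 37.3% of WT cells (30.6 to 44.3%) had a Maf UMI (unthinned 76.2% of CD27_KO and 55.5% of WT cells). In Foxp3-free cells with Ccr7 and Lef1, a naive-type background with median depths of 2221 UMIs in CD27_KO and 2118 in WT, the thinned shares were 6.43% in CD27_KO and 5.95% in WT. The Maf ratio was 0.45 in ST2-positive Foxp3 cells and 0.44 in cells without Foxp3. The other 2 measured members of the type 17 list, Tmem176a and Tmem176b, were higher too, at log2 ratios of 1.07 and 1.01. Il17a and Il17f had 0 UMIs in both libraries.

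Mmp9, Kctd12, Ddit4 and Lztfl1 were among the genes furthest higher in CD27_KO. Mmp9 encodes a matrix-degrading protease and had 88 UMIs in CD27_KO and 23 in WT (log2 ratio 2.12, 1.44 to 2.85). The interval lay wholly above 0. Kctd12, an auxiliary subunit of GABA-B receptors, stood at 2.65 on 61 UMIs in CD27_KO and 11 in WT. Ddit4, a stress-induced inhibitor of mTORC1, stood at 2.16 on 55 UMIs in CD27_KO and 14 in WT. Lztfl1, a ciliary trafficking gene, stood at 2.02 on 111 UMIs in CD27_KO and 31 in WT. In ST2-positive Foxp3 cells the ratios of these 4 genes lay between 0.12 and 0.51, a difference between cell groups that was not tested. Among cells without Foxp3, all 4 genes were read in a larger share of CD27_KO than of WT cells. After thinning these shares were 9.55% in CD27_KO and 4.75% in WT for Kctd12, and 6.99% and 3.98% for Ddit4. For Lztfl1 they were 7.07% in CD27_KO and 5.41% in WT. Unthinned, Mmp9 was read in 10.3% of CD27_KO and 6.2% of WT cells without Foxp3. The higher values were thus not confined to ST2-negative Foxp3 cells.

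The other genes named on the higher side were Iigp1 (1.77), an interferon-induced GTPase gene, Serpina3g (1.77), a serine protease inhibitor gene of activated lymphocytes, Lilrb4a (1.63), which encodes an inhibitory receptor, Glcci1 (1.52), Gng2 (1.49), a G protein subunit gene, and Tmem154 (1.43). For Iigp1 and Glcci1 the ratio was of like size in ST2-positive Foxp3 cells, at 1.88 and 1.21. For Lilrb4a and Glcci1 it was also above 1 in cells without Foxp3, at 1.37 and 1.24.

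Areg, the gene of the tissue repair factor amphiregulin, had 72 UMIs (125 CPM) in CD27_KO and 334 UMIs (513 CPM) in WT, a log2 ratio of -2.03 (-2.42 to -1.66). After thinning, 10.4% of CD27_KO (6.06 to 16.3%) and 21.1% of WT cells (15.7 to 27.3%) had an Areg UMI (unthinned 13.8% of CD27_KO and 27.3% of WT cells), against 0.585% in CD27_KO and 0.952% in WT of the naive-type cells. The Areg ratio was -0.94 in ST2-positive Foxp3 cells and -1.14 in cells without Foxp3. Areg and the chemokine gene Cxcl2 were the 2 members of the VAT Treg list called lower. Cxcl2 had 90 UMIs in CD27_KO and 520 in WT (-2.35), with 31 of the CD27_KO UMIs and 96 of the WT UMIs in single cells. The list of genes induced by dissociation and stress had a median of -0.38 in the same comparison, against 0.10 over all genes. Of its 11 measured genes 1 was called lower (Atf3, 4 UMIs in CD27_KO and 49 in WT) and 0 higher, beside 1.07% lower and 2.07% higher over all genes. Only 1 of the 11 lay above 0. In ST2-positive Foxp3 cells the list median was -0.17, with 0 of 11 above 0. The part of this list in the Areg and Cxcl2 values was not tested.

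Of 9 measured genes of the recirculation list, 3 were called lower and 0 higher, where 1.07% were called lower and 2.07% higher over all genes. The list median was -0.52 against 0.10 over all genes. Klf2, a factor that keeps T cells in circulation, had 90 UMIs in CD27_KO and 267 in WT (-1.39, -1.75 to -1.04). S1pr1, the receptor for exit from lymphoid organs, had 66 UMIs in CD27_KO and 192 in WT (-1.36, -1.79 to -0.95). Ccr7, the lymph node homing receptor, had 14 UMIs in CD27_KO and 37 in WT (-1.22, -2.22 to -0.30). Lef1 stood at -0.52, while Tcf7 stood at -0.09 and Il7r at 0.20. After thinning, a Klf2 UMI was read in 13.0% of CD27_KO and 36.8% of WT cells (unthinned 25.0% of CD27_KO and 55.5% of WT cells). In Il1rl1 and Gata3 cells without Foxp3 the thinned Klf2 shares were 17.4% in CD27_KO and 24.0% in WT. Thinned Ccr7 shares were 3.25% in CD27_KO (5.0% unthinned) and 4.90% in WT (11.4% unthinned), with overlapping intervals, against 0.453% in CD27_KO and 1.57% in WT of Il1rl1 and Gata3 cells without Foxp3 (median depths 3165 UMIs in CD27_KO and 3098 in WT). The Klf2 ratio was -0.94 in ST2-positive Foxp3 cells and -0.89 in cells without Foxp3. The recirculation list lay below all genes in these groups too. Its median was -0.41 against 0.09 over all genes in ST2-positive Foxp3 cells, and -0.64 against 0.17 in cells without Foxp3. The lower list was thus not particular to ST2-negative Foxp3 cells. The Il1rl1 and Gata3 cells without Foxp3 are not a like reference in both libraries. After thinning, an Ikzf2 UMI was read in 6.04% of them in CD27_KO and 43.2% in WT. For Ctla4 these shares were 8.98% in CD27_KO and 40.4% in WT.

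**Figure D2:**
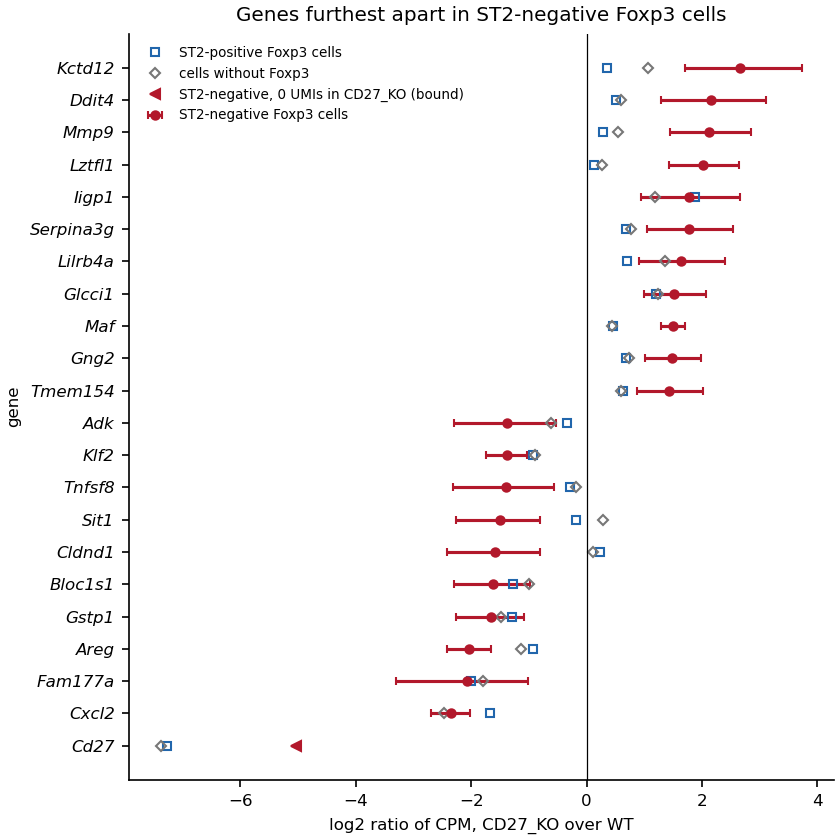
Log2 ratio of CPM, CD27_KO over WT (x axis), of genes named among the 12 furthest in each direction in ST2-negative Foxp3 cells (red, bars are exact 95% intervals for counting error), with the same genes in ST2-positive Foxp3 cells (blue squares) and cells without Foxp3 (grey diamonds). Kctd12 reached 2.65 and Maf 1.49 in ST2-negative cells, while Fam177a lay between -2.08 and -1.79 in all 3 groups.

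A further set was lower in CD27_KO in all 3 groups of cells. Fam177a stood at -2.08 in ST2-negative Foxp3 cells, -2.01 in ST2-positive Foxp3 cells and -1.79 in cells without Foxp3. In those 3 groups Gstp1, a glutathione transferase gene, stood at -1.66, -1.30 and -1.49, and Bloc1s1 at -1.62, -1.27 and -1.0. Gstp1, Lilrb4a and Serpina3g have close copies in the genome, so their counts depend on where reads were assigned and are uncertain. Cldnd1 (-1.58), the T cell adaptor gene Sit1 (-1.51), the TNF family ligand gene Tnfsf8 (-1.40) and Adk (-1.37), the gene of adenosine kinase, completed the named lower genes. Their ratios in ST2-positive Foxp3 cells lay between -0.35 and 0.23.

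Of 14 measured core Treg genes, 2 were called higher and 2 lower, beside 2.07% higher and 1.07% lower over all genes, and the median was 0.20. Ikzf2 had 558 UMIs in CD27_KO and 642 in WT (-0.02, -0.19 to 0.14), and Tnfrsf18, the gene of GITR, stood at 0.08. Ctla4, which encodes the checkpoint receptor CTLA-4, stood at 0.42 (0.26 to 0.58). Socs2, a STAT5 target (252 UMIs in CD27_KO and 127 in WT, 1.17), and Entpd1, which encodes the ectoenzyme CD39 (43 UMIs in CD27_KO and 24 in WT, 1.02), were called higher. Tnfrsf9 (18 UMIs in CD27_KO and 47 in WT, -1.20) and Nrp1 (26 in CD27_KO and 61 in WT, -1.05) were called lower. As 16 of the 47 WT Tnfrsf9 UMIs sat in 1 cell, that value rests largely on few cells.

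Of 10 measured genes of the VAT Treg list, 1 was called higher and 2 lower, with a median of -0.07. The shares over all genes were 2.07% higher and 1.07% lower. Klrg1 had 98 UMIs in CD27_KO and 117 in WT (-0.07), and Gata3 had 106 in CD27_KO and 125 in WT (-0.06), so neither differed beyond counting error. Fgl2, a suppressive secreted fibrinogen-like protein gene, had 167 UMIs in CD27_KO and 79 in WT (1.26, 0.87 to 1.67). Ccr2 stood at 0.92. Il10 had 19 UMIs in CD27_KO and 11 in WT, with an interval from -0.18 to 2.19 that holds 0. Pparg had 3 UMIs in CD27_KO and 5 in WT.

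Chemokine receptors had a median of 0.72 over 8 measured genes, with 2 called higher, Ccr9 among them, and 1 lower (Ccr7). Among all measured genes 2.07% were called higher and 1.07% lower. Ccr9, the gut homing receptor, had 39 UMIs in CD27_KO and 12 in WT (1.88). Its annotated span covers that of Lztfl1 on the other strand, and the sources used here do not state whether counting used strand. Cxcr3, the type 1 homing receptor, had 122 UMIs in CD27_KO and 85 in WT (0.70, 0.29 to 1.12). Tbx21, the gene of T-bet, had 19 UMIs in CD27_KO and 9 in WT (1.26, 0.05 to 2.59), which is under 50 UMIs, and was not counted. After thinning, a UMI of Cxcr3 or Tbx21 was read in 27.9% of CD27_KO cells (21.0 to 35.7%) and 13.7% of WT cells (9.32 to 19.2%), or 50.6% of CD27_KO and 30.9% of WT cells unthinned. Mki67 or Top2a, genes of dividing cells, were read in 5.19% of CD27_KO and 4.41% of WT cells, with intervals that overlap, or 10.0% of CD27_KO and 9.09% of WT cells unthinned.

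Genes around CD27 signalling were set beside the shares over all genes, 2.07% called higher and 1.07% called lower. The TNF receptor list had 0 genes called higher and 2 lower of 6 measured, Cd27 itself and Tnfrsf9, and a median of -0.49. The TRAF and NF-kB list had none called of 7 measured, a median of -0.43 and a range from -0.82 (Rel) to 0.24 (Birc3). Traf1 had 116 UMIs in CD27_KO and 188 in WT (-0.52) and Nfkbia 423 in CD27_KO and 682 in WT (-0.51).

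In the suppression list 2 of 5 measured genes were called higher, Fgl2 and Entpd1, and 0 lower (median 0.42), beside 2.07% higher and 1.07% lower over all genes. Lag3 (19 UMIs in CD27_KO and 5 in WT) and Havcr2 (11 in CD27_KO and 1 in WT), checkpoint receptor genes, were under 50 UMIs and were not counted. In the IL-2 and STAT5 list 1 of 8 was called higher (Socs2) and 0 lower (median 0.19). None was called among type 1 genes (5 measured, median 0.32), T cell receptor activation (9, -0.15), residency (9, 0.03), survival (6, -0.38), interferon response (5, 0.22), cell cycle (4, 0.25), lipid handling (4, -0.17) and sex-linked genes (2, -0.18). The type 2 cytokine and follicular lists had 1 measured gene each, Crlf2 at -0.30 and Sh2d1a at 0.03.

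Single cells were then sorted by 6 recirculation genes (Ccr7, S1pr1, Lef1, Tcf7 and Klf2 among them) and 6 tissue genes (Klrg1, Areg, Gata3, Pparg, Il10, Ccr2), at 1300 UMIs per cell. Recirculation genes without a tissue gene were read in 14.9% of CD27_KO (9.71 to 21.6%) and 32.8% of WT ST2-negative Foxp3 cells (26.4 to 39.7%). Tissue genes without a recirculation gene were read in 42.2% of CD27_KO (34.3 to 50.4%) and 24.5% of WT cells (18.8 to 31.0%). Both sorts together were read in 22.7% of CD27_KO and 28.4% of WT cells, and neither in 20.1% of CD27_KO and 14.2% of WT cells. At 2000 UMIs, tissue genes alone were read in 44.7% of CD27_KO and 16.2% of WT cells. Both sorts were then read in 30.7% of CD27_KO and 49.3% of WT cells, and neither in 9.65% of CD27_KO and 5.15% of WT cells. These classes thus depend on depth, and a gene that was not read may still be expressed, so they do not define cell states. The tissue genes did not all go 1 way in ST2-negative Foxp3 cells. At 1300 UMIs, CD27_KO and WT shares were 10.4% and 21.1% for Areg, and 20.1% and 20.1% for Klrg1. They were 18.2% and 16.7% for Gata3, 0% and 0.490% for Pparg, and 5.19% and 0.490% for Il10. The Ccr2 log2 ratio was 0.92. Which genes set the class shares was not tested. In cells without Foxp3, recirculation genes alone were read in 28.6% of CD27_KO and 49.4% of WT cells. ST2-positive Foxp3 cells did not show that order, with recirculation genes alone in 9.20% of CD27_KO (5.24 to 14.7%) and 7.20% of WT cells (4.84 to 10.2%), intervals that overlap. Tissue genes alone had the same order in the other groups. They were read in 27.1% of CD27_KO and 16.6% of WT cells without Foxp3. In ST2-positive Foxp3 cells they were read in 50.9% of CD27_KO (43.0 to 58.8%) and 43.2% of WT cells (38.2 to 48.3%), with overlapping intervals.

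**Figure D3:**
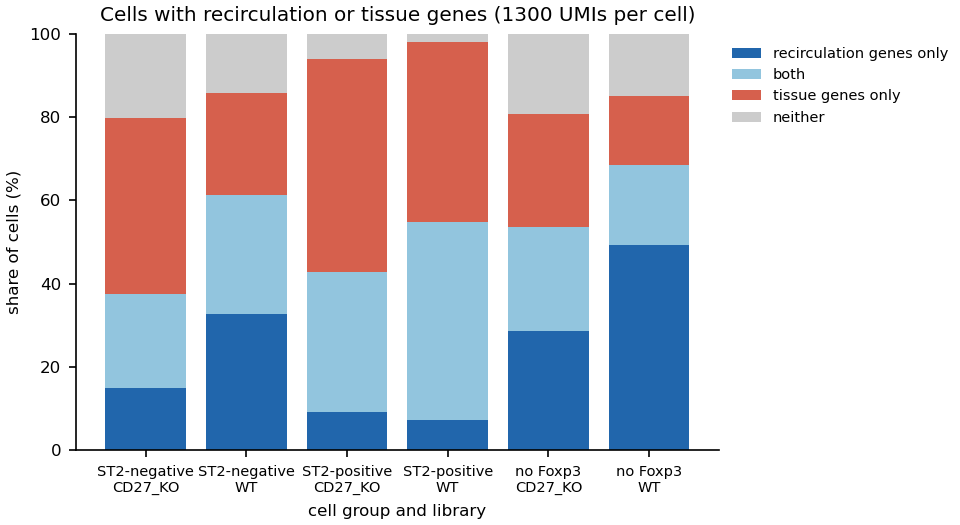
Share of cells (%, y axis) with a UMI of recirculation genes alone, of both sets, of tissue genes alone or of neither, each cell thinned to 1300 UMIs, for 3 cell groups in CD27_KO and WT. Tissue genes alone made up 42.2% of CD27_KO and 24.5% of WT ST2-negative Foxp3 cells. Single tissue genes did not all share that order.

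The second question was how ST2-negative differed from ST2-positive Foxp3 cells within a library. Il1rl1 chose both groups, so these values are descriptions and nothing is read from the counts. In CD27_KO, 40 of 4544 genes were called higher in ST2-negative cells (percent called 0.88) and 126 lower (2.77). In WT, 24 of 5748 were called higher (0.418) and 224 lower (3.9). Past 2-fold the same way in both libraries and past the filter on cells were 2 higher and 33 lower genes.

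The VAT Treg list had a median below that of all genes in both libraries, though in CD27_KO other lists lay lower, among them TRAF and NF-kB (-0.99). In WT, 9 of 16 measured genes were called lower in ST2-negative cells and 0 higher, with a median of -1.17 against -0.09 over all genes. In CD27_KO, 4 of 13 were called lower and 0 higher, with a median of -0.29 against -0.04. Over all genes 3.9% were called lower and 0.418% higher in WT, and 2.77% lower and 0.88% higher in CD27_KO. Pparg had 3 UMIs in ST2-negative and 48 in ST2-positive CD27_KO cells (-3.01), and 5 in ST2-negative and 95 in ST2-positive WT cells (-2.56). Areg stood at -2.57 in CD27_KO and -1.47 in WT, Gata3 at -1.49 in CD27_KO and -1.28 in WT, and Klrg1 at -0.85 in CD27_KO and -1.16 in WT. Il10 had 19 UMIs in ST2-negative and 39 in ST2-positive CD27_KO cells (-0.04, -0.92 to 0.78). In WT it had 11 in ST2-negative and 183 in ST2-positive cells (-2.37, -3.40 to -1.50). Fgl2 and Ccr2 also had separate intervals in the libraries, with Fgl2 at 0.29 in CD27_KO and -0.91 in WT, and Ccr2 at 0.01 in CD27_KO and -0.79 in WT.

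Other genes lower in both libraries were Furin, a proprotein convertase gene (-2.54 in CD27_KO and -1.91 in WT), Cxcl2 (-2.41 in CD27_KO and -1.73 in WT), the leukotriene B4 receptor gene Ltb4r1 (-1.64 in CD27_KO and -1.68 in WT), the insulin signalling gene Irs2 (-1.81 in CD27_KO and -1.60 in WT), the integrin gene Itgb3 (-1.49 in CD27_KO and -1.76 in WT), Zfp36 (-1.68 in CD27_KO and -1.41 in WT), whose protein destabilises cytokine mRNAs, Nfkbiz (-1.40 in CD27_KO and -1.43 in WT), which encodes an atypical IkB protein, and Prxl2a (-1.33 in CD27_KO and -1.69 in WT). Art2b (1.22 in CD27_KO and 1.18 in WT), an ADP-ribosyltransferase gene of T cells, and Sh2d1a (1.42 in CD27_KO and 1.0 in WT), the gene of the SLAM adaptor SAP, were the higher pair. The dissociation and stress list, which holds Zfp36, had medians of -0.72 in CD27_KO (4 of 11 genes called lower, 0 higher) and -0.54 in WT (3 of 11 lower, 0 higher). Over all genes 2.77% were called lower and 0.88% higher in CD27_KO, and 3.9% lower and 0.418% higher in WT. The part of this list in these values was not tested.

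Genes of NF-kB signalling lay lower in ST2-negative cells of both libraries, some of them past 2-fold in CD27_KO alone. In CD27_KO 5 of 13 measured genes were called lower and 0 higher, beside 2.77% lower and 0.88% higher over all genes. The list median there was -0.99 against -0.04 over all genes. Nfkbia stood at -1.34, Nfkb1 at -1.27 and Tnfaip3 at -1.25. In WT none of 14 was called, beside 3.9% lower and 0.418% higher over all genes, but only 1 of the 14 lay above 0. The median in WT was -0.35 against -0.09 over all genes, with Nfkbia at -0.88, Nfkb1 at -0.82 and Tnfaip3 at -0.75.

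In WT, 2 of 11 measured recirculation genes were called higher in ST2-negative cells, with Ccr7 at 1.17, and 0 lower, with a median of 0.40. In CD27_KO none of 9 was called (median -0.27), with Klf2 at -0.03 and S1pr1 at -0.13. Over all genes 0.418% were called higher and 3.9% lower in WT, and 0.88% higher and 2.77% lower in CD27_KO. Cxcr3 was higher in ST2-negative cells of both, at 1.03 in CD27_KO and 0.95 in WT. Maf stood at 1.04 in CD27_KO (0.88 to 1.19) and at 0.00 in WT (-0.20 to 0.19), and was read in 63.6% of ST2-negative and 43.6% of ST2-positive CD27_KO cells after thinning. In WT it was read in 37.3% of ST2-negative and 36.8% of ST2-positive cells. Unthinned, it was read in 76.2% of ST2-negative and 81.0% of ST2-positive CD27_KO cells, and in 55.5% of ST2-negative and 71.4% of ST2-positive WT cells. Core Treg genes were close to even, with medians of 0.26 in CD27_KO (15 measured, 1 higher, 2 lower) and -0.02 in WT (15 measured, 1 higher, 1 lower).

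**Figure D4:**
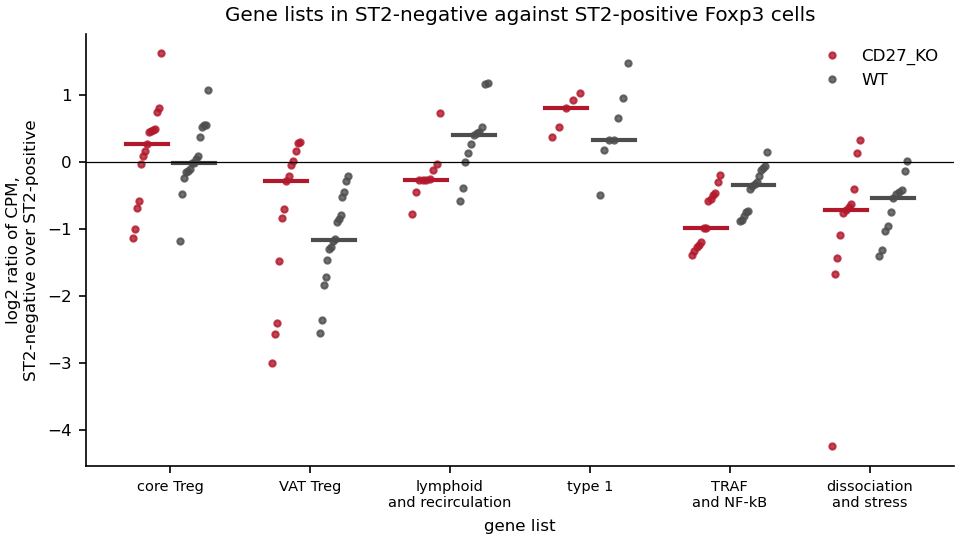
Log2 ratio of CPM, ST2-negative over ST2-positive Foxp3 cells (y axis), of each gene with at least 50 UMIs in 6 gene lists (x axis), in CD27_KO (red) and WT (grey), with the list median as a bar. The VAT Treg median was -0.29 in CD27_KO and -1.17 in WT, and the TRAF and NF-kB median -0.99 in CD27_KO and -0.35 in WT.

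**Figure D5:**
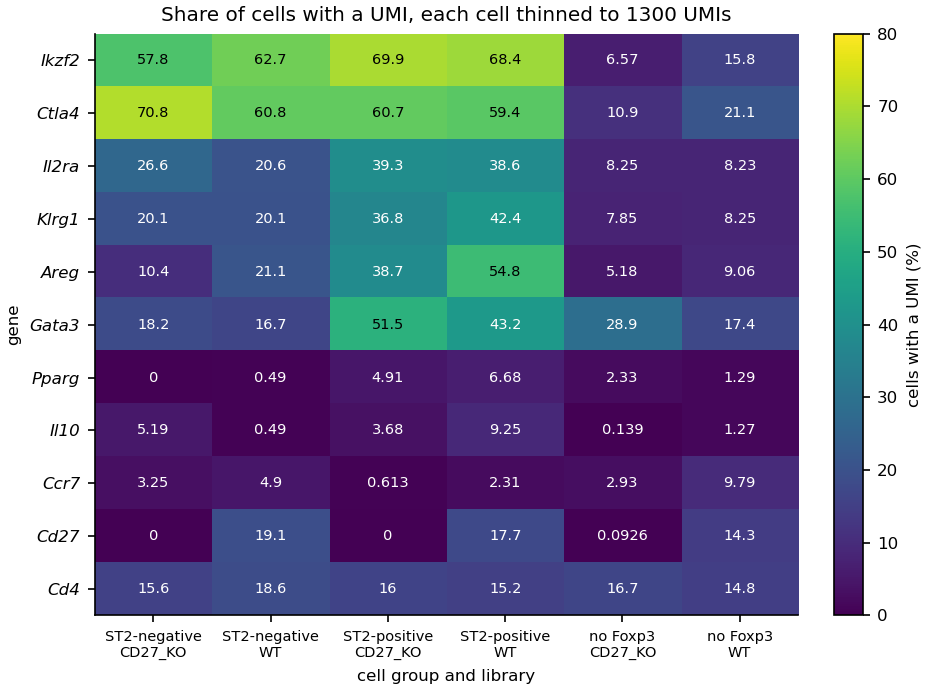
Share of cells with a UMI (%, colour and printed value) of 11 genes (rows) in ST2-negative Foxp3 cells, ST2-positive Foxp3 cells and cells without Foxp3 of each library (columns), each cell thinned to 1300 UMIs. Gata3 was read in 18.2% of CD27_KO and 16.7% of WT ST2-negative cells, against 51.5% of CD27_KO and 43.2% of WT ST2-positive cells.

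Against cells without Foxp3, ST2-negative Foxp3 cells were set apart by core Treg genes. In CD27_KO 485 of 9967 genes were called higher (percent called 4.87) and 646 lower (6.48), and in WT 250 of 9481 higher (2.64) and 546 lower (5.76). These counts rest on few UMIs, since the cells without Foxp3 supply most of each sum. Requiring at least 20 UMIs expected in the smaller group left 44 higher and 68 lower in CD27_KO, and 13 higher and 32 lower in WT, an alternative chosen after the data were seen. Foxp3 chose the groups, so these are descriptions too.

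Of the core Treg list 12 of 17 measured genes were called higher in CD27_KO and 9 of 18 in WT, 0 lower in either, with medians of 1.55 in CD27_KO and 1.01 in WT. Over all genes 4.87% were called higher and 6.48% lower in CD27_KO, and 2.64% higher and 5.76% lower in WT. Ikzf2 stood at 971 CPM in ST2-negative Foxp3 cells and 91.9 CPM in cells without Foxp3 of CD27_KO (3.40), and at 986 CPM in ST2-negative Foxp3 cells and 260 CPM in cells without Foxp3 of WT (1.92). Ctla4 stood at 2.99 in CD27_KO and 1.57 in WT. After thinning, a Ctla4 UMI was read in 70.8% of CD27_KO and 60.8% of WT ST2-negative cells (unthinned 89.4% of CD27_KO and 76.4% of WT cells), against 10.5% of CD27_KO and 9.52% of WT naive-type cells. Ikzf4, the gene of Eos, stood at 3.21 in CD27_KO and 2.35 in WT, Gzmb, the gene of granzyme B, at 2.87 in CD27_KO and 1.61 in WT, and Tnfrsf4, the gene of OX40, at 1.55 in CD27_KO and 1.44 in WT. Izumo1r, the gene of folate receptor 4, stood at 2.13 in CD27_KO and 1.41 in WT, and the Wnt secretion gene Wls at 2.13 in CD27_KO and 1.45 in WT. Ift80, Sdcbp2 and Bmyc, between 1.11 and 1.99, completed the 10 higher genes named of 14 past 2-fold in both libraries and the filter on cells. With 2 Foxp3 UMIs required, which left 48 WT ST2-negative Foxp3 cells, the Ift80 ratio in WT was -1.96. That value rests on few cells. Furin (-2.45 in CD27_KO and -1.44 in WT), the chromatin organiser gene Satb1 (-1.07 in CD27_KO and -1.24 in WT) and Lmo4 (-1.53 in CD27_KO and -1.02 in WT) were lower. The cells without Foxp3 also differed between libraries in these genes, with Ikzf2 at -1.50 and Ctla4 at -1.0 for CD27_KO over WT there, beside -0.02 and 0.42 in ST2-negative Foxp3 cells.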

How the data were processed

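Single-cell RNA-seq of sorted CD4 T cells of mouse VAT was used as UMI counts. Per the file headers the authors counted with Cell Ranger 6.1.1, and per the submitters' processing notes the build was mm10. The deposited counts per gene and called cell cover 32285 genes, plus 1 antibody feature with 0 UMIs. The sample protocol and the series design name different kit versions. Of the other upstream settings, the sources used here say nothing.

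From the counts, 40 CD27_KO and 60 WT barcodes were removed by the filter, which left median depths of 2209 UMIs in CD27_KO and 1945.5 in WT. No doublet caller was run. UMIs were summed per library and cell group and scaled to CPM. Ratios carry exact conditional binomial intervals and shares exact Clopper-Pearson ones, both at 95%, and 0 counts were set to a floor of 3. Cells were thinned to 1300 UMIs without replacement, leaving out 6 CD27_KO and 16 WT ST2-negative Foxp3 cells. Positions come from GENCODE vM21, 1-based. Python 3.11.15, numpy 2.4.6, pandas 2.3.3, scipy 1.17.1 and matplotlib 3.10.9 were used, and the steps were tested on simulated data.

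The cells described and the 20 gene lists and 13 marker lists were chosen with earlier results of these data known. Named genes were 15 set genes, the 12 furthest in each direction between CD27_KO and WT and the 10 furthest in the other comparisons among genes past 2-fold, with 50 UMIs and seen in 10% of cells of the higher group, and up to 4 genes furthest from 0 per list. Other genes named in the text were chosen after their values were seen. Some genes that these rules select are not reported here.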

Additional observations from a re-analysis of the deposited data

Results flagged for a closer look

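For 6 genes the ratio of CD27_KO over WT lay at least 1.5-fold one way in ST2-negative Foxp3 cells and at least 1.5-fold the other way in ST2-positive ones. The difference between the cell groups was not tested, since there is 1 library per group. Mt1, a metallothionein gene, stood at 0.86 in ST2-negative cells (122 UMIs in CD27_KO, 47 of them in 1 cell, and 76 in WT) and at -1.26 in ST2-positive cells. Ccl4, an inflammatory chemokine gene, stood at 1.24 and -0.63, with 105 of 133 CD27_KO UMIs and 51 of 64 WT UMIs in single ST2-negative cells. Sdc4, the gene of a heparan sulfate proteoglycan, stood at 0.79 in ST2-negative and -0.69 in ST2-positive cells, and Cdk5rap3 at 0.77 and -0.64. The transcriptional repressor gene Rest stood at -0.86 in ST2-negative and 0.64 in ST2-positive cells, and 2210016L21Rik at -0.65 and 0.66. For Rest, Cdk5rap3 and 2210016L21Rik the interval in ST2-negative cells held 0.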

How the results depend on the processing

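No paired analysis was possible because there is 1 library per group, and for the same reason no replicate could be left out. Of 130 alternative counts of genes, 76 stayed within 1.5 times the main count. Of 682 alternative list medians, 622 stayed close to the main value, 60 moved and 0 reversed. Of 863 values of named genes 16 moved and 1 reversed: Ift80 in WT ST2-negative Foxp3 cells over cells without Foxp3 was -1.96 when 2 Foxp3 UMIs were required. That setting left 48 WT ST2-negative Foxp3 cells, so the Ift80 value rests on few cells. For the other values the cause of a move was not tested, beyond the smaller or larger number of genes and cells that a setting leaves.

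In the comparison of CD27_KO over WT within ST2-negative Foxp3 cells, 36 genes were higher and 13 lower with at least 2 Foxp3 UMIs, 318 and 135 with a minimum of 20 UMIs per gene, 21 and 10 with 100, 388 and 144 at 1.5-fold, 116 and 58 with each cell given the same weight, and 30 and 17 with cells thinned to 1300 UMIs. With cells of at least 2000 UMIs 22 were lower.

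For ST2-negative over ST2-positive Foxp3 cells of CD27_KO, 129 were higher and 379 lower with 20 UMIs per gene, 16 and 65 with 100, 206 and 473 at 1.5-fold, and 14 and 47 with thinned cells. With 2 Foxp3 UMIs 13 were higher, and with equal cell weights 70. Without cells holding a marker UMI of another type 75 were lower. In WT, 105 were higher and 576 lower with 20 UMIs per gene, 5 and 97 with 100, 176 and 736 at 1.5-fold, 11 and 76 with thinned cells, and 7 and 118 with 20 UMIs expected in the smaller group. With equal cell weights 59 were higher, and without cells holding such a marker UMI 122 were lower.

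For ST2-negative Foxp3 cells over cells without Foxp3, the higher genes in CD27_KO and WT numbered 1136 and 1543 with 2 Foxp3 UMIs, 1354 and 825 with 20 UMIs per gene, 291 and 112 with 100, 733 and 380 with thinned cells, 1359 and 962 at 1.5-fold, and 44 and 13 with 20 UMIs expected. In WT 387 were higher with equal cell weights. The lower genes numbered 1425 in CD27_KO and 1146 in WT at 1.5-fold, 68 and 32 with 20 UMIs expected, and 313 in WT with 100 UMIs per gene. The higher genes were thus most numerous at 1.5-fold in CD27_KO (1359) and with 2 Foxp3 UMIs in WT (1543). They were fewest in both libraries with 20 UMIs expected. A gene unread in a group was set to the floor of 3 UMIs. The higher genes can therefore include genes unread in ST2-negative Foxp3 cells, and how many do so under each setting was not tested.

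The share of ST2-negative Foxp3 cells among kept cells was 1.04% in CD27_KO and 0.757% in WT with 2 Foxp3 UMIs, so that CD27_KO was then the higher library. It was 2.79% in CD27_KO and 4.48% in WT with cells of at least 2000 UMIs, and 4.59% in WT with a cell filter of 800 genes and 5% mitochondrial UMIs. Among Foxp3 cells the share was 43.3% in CD27_KO and 29.2% in WT with 2000 UMIs, 24.7% in WT with 2 Foxp3 UMIs, 31.1% in WT with 800 genes, and 55.2% in CD27_KO without cells holding a marker UMI of another type.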

Other observations

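Around the deleted gene, 52 genes within 20 Mb of Cd27 were measured, of which 1 was called higher and 1 lower in CD27_KO. Over all 3278 genes 2.07% were called higher and 1.07% lower, so these counts are near the share over all genes. Mgp had 60 UMIs in CD27_KO and 0 in WT, all in 0.625% of CD27_KO cells, which is 1 cell. Fkbp4, the gene of a Hsp90 co-chaperone, had 19 UMIs in CD27_KO and 48 in WT (-1.16, -2.01 to -0.36).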
